A study of Mus musculus with 9 samples.

Results

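Reactive, acute-phase and complement genes were followed through RNA sequencing of purified mouse retinal ganglion cells (RGCs), the neurons whose axons form the optic nerve, after elevation of intraocular pressure (IOP). The members were 10 named genes of the 23997 gene symbols in each library, namely Lcn2, Serpina3n, S100a6, Cd44, Timp1, C1qa, C1qb, C1qc, C4b and C3. They were selected on their expression (FPKM, fragments relative to transcript length and library, scaled between libraries) and group differences in these same libraries, so their levels and differences are given as a description, with no p-value. All 10 were found in the files, and 6 of them had a mean level that passed the filter on low values (a mean scaled FPKM of at least 0.5), whereas C3, C4b, Cd44 and Timp1 did not.

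RGCs came from C57BL/6J mice, listed as 8 weeks old in the sample labels, whereas the series text starts the experiment at 6 weeks. The Control group received saline in the anterior chamber of the eye, and the Mild IOP and Moderate IOP groups received microbeads, which impede outflow of fluid and raise IOP. IOP was read 3 times a week for 2 weeks before RGCs were taken. The groups were split by the size of the IOP rise, and all 3 went through the same immunopanning, in which plates with BSL-1 (against fibroblasts, endothelium, macrophages and microglia), CD11b/c (macrophages and microglia) and VC1.1 (amacrine cells) were meant to remove other cells and a Thy1.2 plate retained RGCs. Actinomycin D, which blocks transcription, was in the isolation solutions of all 3 groups. RNA of a group was pooled, from fewer retinas in Moderate IOP than in either other group. Each pool was divided into 3 libraries. A difference between groups is therefore a difference between 3 pools, the SD over 3 libraries is technical, and the p-values measure only that spread. The Control libraries stood apart in lens transcripts, since 14 lens markers, led by Cryaa, summed to 394, 433 and 365 scaled FPKM there and to between 11.6 and 20.2 in the 6 other libraries, with 9 of 11 tested lower in each IOP group (limma, false discovery rate or FDR below 0.1). The lens sums of Mild IOP and Moderate IOP overlapped, and Crygs and Crybb2, the next most abundant, had means of 73.4 and 65.6 in Control and at most 5.0 in any IOP library. The Control libraries were also apart in 12 rod markers, which summed to 812, 752 and 665 there and to between 424 and 546 in the IOP libraries. The part of lens and rod content in differences from Control was not tested. Because the RNA is from bulk preparations, a change in the number of cells of a type and a change in RNA per cell cannot be told apart.

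Complement is a cascade of plasma and tissue proteins in which C1q, built from the chains of C1qa, C1qb and C1qc, binds a target and starts the classical pathway, which passes through C4 and C2 to C3. In the retina and brain C1q is made mainly by microglia, and complement is known for tagging synapses for removal. Acute-phase proteins are secreted in inflammation, typically under STAT3, C/EBP and NF-kB transcription factors, and Lcn2 and Serpina3n belong to them and are also classical genes of reactive astrocytes. S100a6, Cd44 and Timp1 are commonly raised in glia and other cells after injury.

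Because acute-phase genes are often read through NF-kB and STAT sites close to their start, the 250 bases before the start of transcription were examined in RefSeq sequence (GRCm38.p6). The set of promoter windows used here held 8 of the 10 members, without C1qa and C4b. The windows of Lcn2 (chr2:32387740-32387989, minus strand), Serpina3n (chr12:104406458-104406707, plus strand) and S100a6 (chr3:90612644-90612893, plus strand) are printed as those of the acute-phase members and of S100a6. They are written 5′ to 3′ along the gene, with capitals for matches on either strand to GGG, any 5 bases and CC, the general form of an NF-kB site.
Lcn2: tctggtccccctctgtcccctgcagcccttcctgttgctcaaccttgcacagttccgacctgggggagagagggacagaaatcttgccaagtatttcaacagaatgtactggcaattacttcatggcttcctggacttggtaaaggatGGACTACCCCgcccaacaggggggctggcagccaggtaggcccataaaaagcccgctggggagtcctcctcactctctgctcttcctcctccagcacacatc
Serpina3n: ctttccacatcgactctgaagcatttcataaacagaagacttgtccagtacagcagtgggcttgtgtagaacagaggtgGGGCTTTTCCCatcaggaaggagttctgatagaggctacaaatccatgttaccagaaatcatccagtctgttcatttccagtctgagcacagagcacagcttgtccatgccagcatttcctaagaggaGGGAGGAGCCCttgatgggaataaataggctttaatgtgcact
S100a6: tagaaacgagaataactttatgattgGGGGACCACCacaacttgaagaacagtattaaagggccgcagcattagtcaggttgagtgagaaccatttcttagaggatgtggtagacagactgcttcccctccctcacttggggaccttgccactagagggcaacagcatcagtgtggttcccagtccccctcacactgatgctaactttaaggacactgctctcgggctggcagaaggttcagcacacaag
The match in Lcn2 starts at -102 from the start of transcription and the match in S100a6 starts at -224. Serpina3n has 4 matches in a pair of runs that start at -171 and -43, each run read on both strands with overlap. All 8 windows held this NF-kB form, and so did 45.8% of 32851 promoter windows of the same length. None of the 8 held TTCNNNGAA, the general form of a STAT site, which was in 7.02% of all windows. A match of letters is a description and does not show that a factor binds there.

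Levels were read as FPKM, which counts fragments relative to the length of the transcript and to all mapped fragments of a library, and were then scaled between libraries by median-of-ratios factors. FPKM is per length, so levels of different genes can be compared. Depth, derived from the width of the deposited confidence intervals, was 7120000, 8890000 and 5080000 fragments in the Control libraries, 6810000, 6610000 and 5380000 in the Mild IOP libraries and 5040000, 8670000 and 5970000 in the Moderate IOP libraries. On the scaled FPKM scale the mean level over all 9 libraries was highest for C1qb at 13 and C1qc at 11.6, followed by C1qa at 5.86, S100a6 at 3.92, Lcn2 at 2.79 and Serpina3n at 2.06. The last 4 lay under 1, with C3 at 0.422, C4b at 0.235, Cd44 at 0.145 and Timp1 at 0.0556. Each gene overlapped its neighbour in this order over the 9 libraries, as with C1qb (7.48 to 19.4) and C1qc (4.77 to 16.5).

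**Figure D1:**
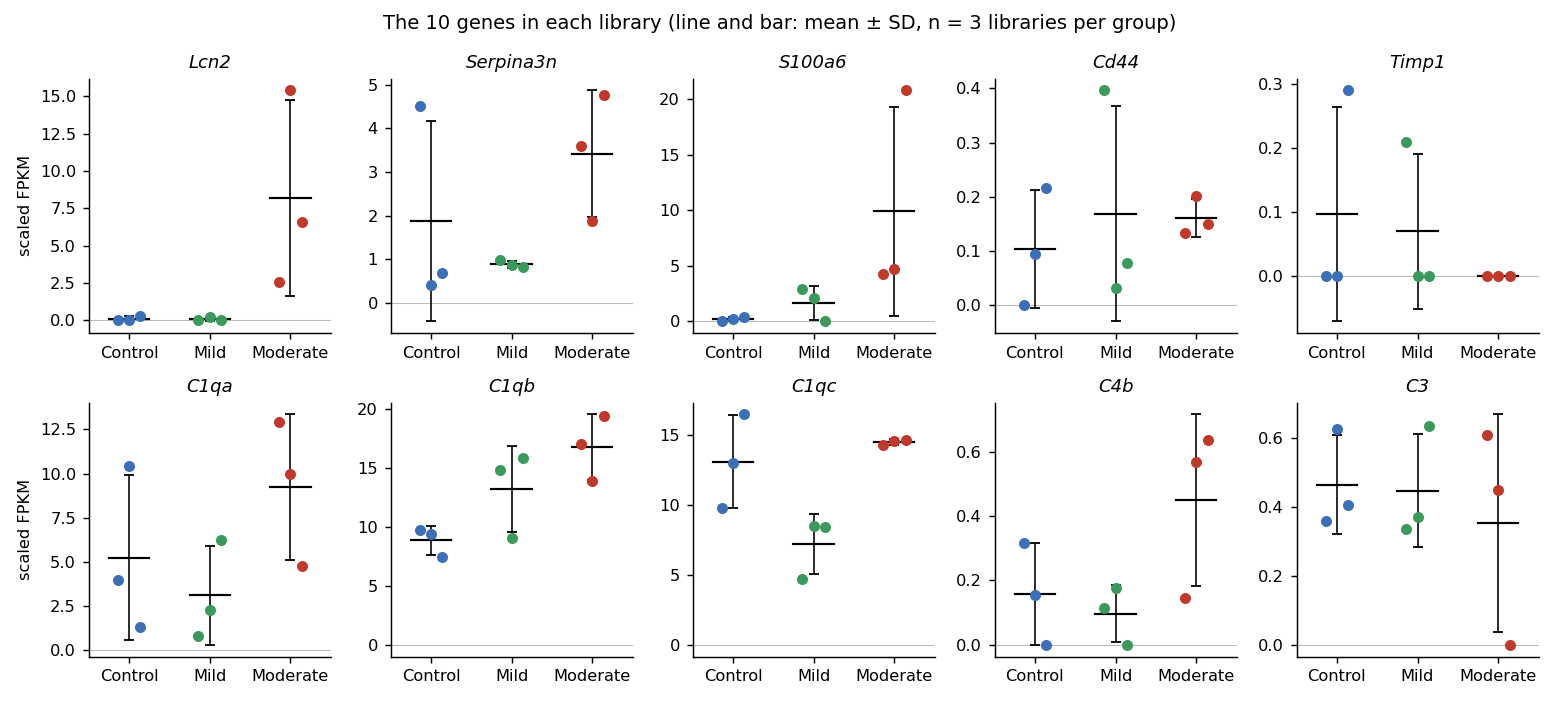
Scaled FPKM (vertical axis, a separate linear scale for each gene) of the 10 genes in the 3 Control, 3 Mild IOP and 3 Moderate IOP libraries. Points are libraries, horizontal lines are means and bars are SD (n = 3); Lcn2 and S100a6 are higher in all 3 Moderate IOP libraries than in any other library, and Cd44, Timp1, C4b and C3 stay under 1 FPKM.

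Lcn2 encodes lipocalin 2, a secreted acute-phase protein that binds iron-loaded siderophores of bacteria. It lies on mm10 at chr2:32384637-32387739 on the minus strand and overlaps no other locus in the files. Its scaled FPKM was 0, 0 and 0.308 in Control and 0, 0.225 and 0 in Mild IOP, against 2.58, 15.4 and 6.59 in Moderate IOP. Every Moderate IOP library was above all 6 others, in which the gene was near 0. The group means were 0.103 ± 0.178, 0.0751 ± 0.13 and 8.19 ± 6.56 (SD, n = 3).
The values rested on 1 fragment in all of Control and 1 in Mild IOP, against 121 in Moderate IOP. With depth taken into account this was a ratio of 130 to Control (95% interval 22.8 to 5160) and 116 to Mild IOP (20.4 to 4600), where the intervals cover counting error only. The Log2 difference of scaled FPKM + 1 was 2.81 from Control and 2.84 from Mild IOP (SE 0.46 each), a scale that understates changes of low genes. Within Moderate IOP the highest library was 5.97 times the lowest although they came from the same pool, and 2 of the 3 pairs of libraries had deposited confidence intervals that did not meet.

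Serpina3n encodes a secreted serine protease inhibitor of the alpha-1-antichymotrypsin group. It lies at chr12:104406708-104414329 on the plus strand, within a cluster of similar Serpina3 genes among which short fragments can be divided, so its level is uncertain. Its scaled FPKM was 4.51, 0.4 and 0.693 in Control and 0.979, 0.857 and 0.818 in Mild IOP, against 3.59, 1.88 and 4.77 in Moderate IOP. Moderate IOP was above all Mild IOP libraries and overlapped Control through Control replicate 1, which was 11.3 times Control replicate 2. The Log2 difference of Moderate IOP was 0.85 from Control and 1.17 from Mild IOP (SE 0.47 each). Control replicate 1 rested on 63.1 fragments, more than any Moderate IOP library.

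S100a6 encodes calcyclin, a small calcium-binding protein of the S100 family. It lies at chr3:90612894-90614414 on the plus strand. Its scaled FPKM was 0, 0.225 and 0.399 in Control and 2.93, 2.06 and 0 in Mild IOP, against 4.22, 4.67 and 20.8 in Moderate IOP. Moderate IOP was above every other library, while Mild IOP overlapped Control through the library listed at 0. The fragments behind the groups numbered 2 in Control and 17 in Mild IOP, against 89 in Moderate IOP. The ratio by depth was 47.7 to Control (95% interval 12.8 to 400.0) and 5.0 to Mild IOP (2.95 to 8.97), for counting error only. The Log2 difference of Moderate IOP was 2.85 from Control and 1.92 from Mild IOP (SE 0.59 each). Moderate IOP replicate 3 was 4.93 times replicate 1, so S100a6 and Lcn2 had their highest values in different libraries of that pool.

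**Figure D2:**
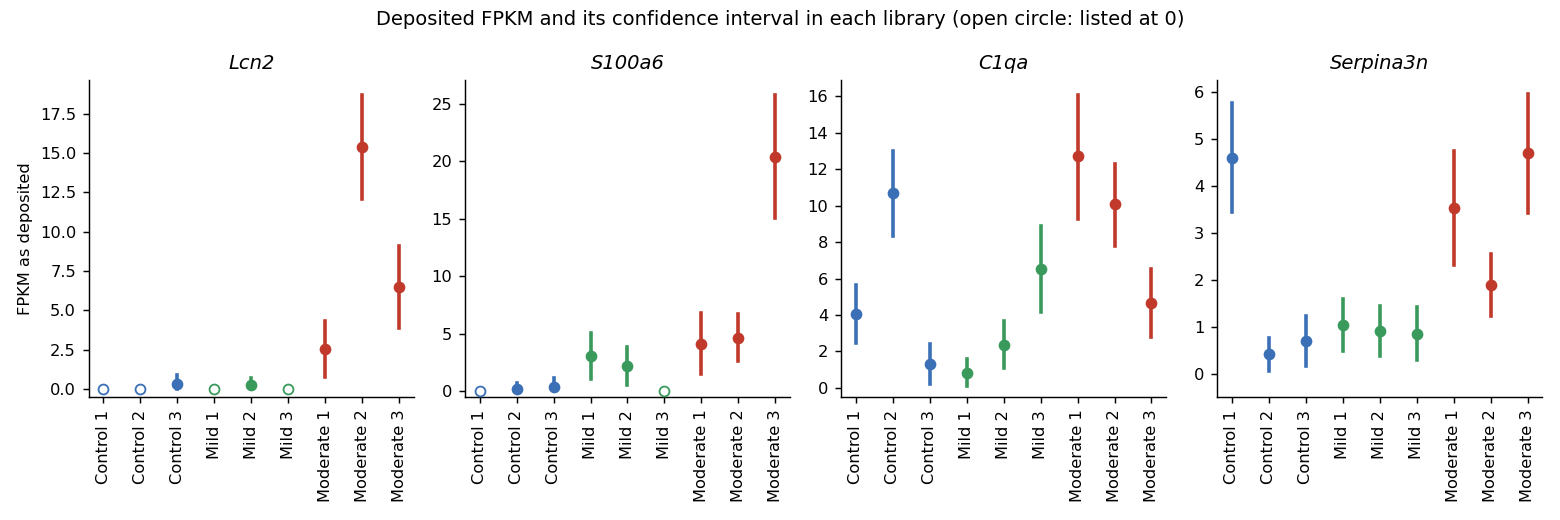
FPKM as deposited, before scaling (vertical axis, linear), with the confidence interval of the estimate (bars) in each of the 9 libraries for Lcn2, S100a6, C1qa and Serpina3n. Open circles are libraries where the gene is listed at 0; libraries of 1 group often lie outside each other's intervals, as with Lcn2 at 15.4 (12.1 to 18.7) and 2.54 (0.745 to 4.34) in Moderate IOP.

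Libraries of a pool differed by more than the deposited intervals in several of these genes. Among libraries of the same group in which a gene was above 0, 18 of 63 pairs had intervals that did not meet, spread over 6 genes. C1qa had disjoint intervals in all 3 Control pairs, while C1qc had none in any group.

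Cd44 encodes the hyaluronan receptor, and its locus is chr2:102811142-102901665 on the minus strand. Its scaled FPKM was 0, 0.0953 and 0.217 in Control and 0.396, 0.0312 and 0.0788 in Mild IOP, against 0.134, 0.201 and 0.15 in Moderate IOP. All 3 groups overlapped, and the 9 libraries together held 22.8 derived fragments. Timp1, an inhibitor of matrix metalloproteinases at chrX:20870166-20874737 on the plus strand, was above 0 in 2 libraries, Control replicate 3 at 0.29 and Mild IOP replicate 1 at 0.21. It was listed at 0 in all 3 Moderate IOP libraries. Timp1 lies inside the locus of Syn1 on the opposite strand, and Syn1, a synaptic vesicle gene, was at 164, 173 and 190 scaled FPKM in the 3 groups. The libraries do not mark the strand, so fragments of the pair could not be separated by strand, and at this depth no difference in Cd44 or Timp1 was detectable.

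The C1q chain genes lie side by side on chromosome 4, all on the minus strand, with C1qb at chr4:136880145-136886177, C1qc at chr4:136889802-136892914 and C1qa at chr4:136895916-136898844. They were the most abundant of the 10 genes in Control, where Lcn2 and S100a6 were near 0. The scaled FPKM of C1qa was 3.99, 10.4 and 1.33 in Control and 0.793, 2.25 and 6.25 in Mild IOP, against 12.9, 10.05 and 4.74 in Moderate IOP. The groups overlapped, with a spread of 7.82 times within Control. The scaled FPKM of C1qb was 9.74, 9.45 and 7.48 in Control and 14.8, 9.08 and 15.8 in Mild IOP, against 17.0, 13.9 and 19.4 in Moderate IOP. Here all Moderate IOP libraries lay above all Control libraries, and Mild IOP overlapped both. The scaled FPKM of C1qc was 9.84, 13 and 16.5 in Control and 4.77, 8.5 and 8.43 in Mild IOP, against 14.3, 14.6 and 14.7 in Moderate IOP. Mild IOP lay below all libraries of the other groups, and Moderate IOP lay within the range of Control.

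C1q holds the 3 chains in equal numbers, and the order of the group means was not the same for the 3 transcripts. The Log2 difference of Moderate IOP from Control was 0.91 for C1qa (SE 0.61), 0.84 for C1qb (SE 0.23) and 0.17 for C1qc (SE 0.24). For Mild IOP against Control the differences were -0.55, 0.50 and -0.79 in the same order. Across the 9 libraries the ratio of C1qb to C1qa ran from 0.905 to 18.7 and that of C1qb to C1qc from 0.454 to 3.11. The sum of the 3 was 23.6, 32.9 and 25.3 scaled FPKM in Control and 20.4, 19.8 and 30.5 in Mild IOP, against 44.3, 38.5 and 38.9 in Moderate IOP. The sum was thus higher in every Moderate IOP library than in the other 6, at a mean of 40.6 ± 3.24 against 27.2 ± 4.96 in Control and 23.6 ± 6.02 in Mild IOP (SD, n = 3).

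Because C1q is known as a product of microglia, which the BSL-1 and CD11b/c plates were meant to remove, the markers of microglia and macrophages were read beside it. Of 17 markers 13 were tested and none passed the limma test in any of the 3 comparisons (1, 0 and 1 at an unadjusted p below 0.05 in Mild IOP against Control, Moderate IOP against Control and Moderate IOP against Mild IOP). Without Moderate IOP replicate 3, 1 marker was called higher in Moderate IOP than in each of the other groups. Their summed scaled FPKM was 93.8, 80.2 and 80.3 in Control and 105, 83.5 and 85.3 in Mild IOP, against 209, 168 and 82.8 in Moderate IOP. Fcer1g, the shared gamma chain of Fc receptors, was the most abundant of them and made up 36.5% of the sum, at 150, 95.5 and 11 in Moderate IOP. Without Fcer1g the sum was 69.9, 56.8 and 59.1 in Control and 89.0, 72.2 and 77.1 in Mild IOP, against 58.7, 72.3 and 71.8 in Moderate IOP. Moderate IOP overlapped both other groups, and Mild IOP lay above Control. Ctss, a lysosomal protease, had means of 15.1, 20.8 and 16.1 in Control, Mild IOP and Moderate IOP. Ptprc, Mrc1 and Cd163 were under 1 FPKM in every library. Of the defining microglial genes, P2ry12 was listed at 0 in Control replicate 1 and in Moderate IOP replicates 1 and 3, and Tmem119 ran from 0.596 to 2.01 over all libraries. With Fcer1g left in, the marker sum was higher in Moderate IOP replicates 1 and 2 than in any other library, and its part in the C1q values was not tested.

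**Figure D3:**
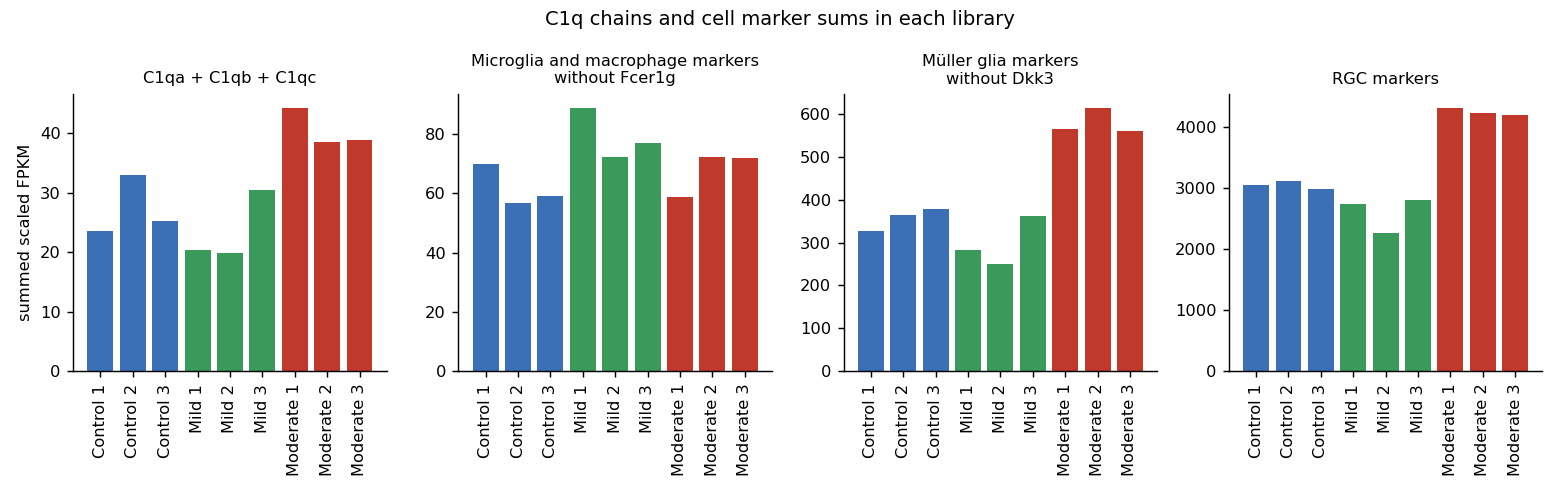
Summed scaled FPKM (vertical axes, linear from 0) in each of the 9 libraries for the C1q chains, the microglia and macrophage markers without Fcer1g, the Müller glia markers without Dkk3, and the RGC markers. The C1q sum is at 38.5 to 44.3 in Moderate IOP against 19.8 to 32.9 elsewhere, the microglial sum of Moderate IOP (58.7 to 72.3) overlaps Control (56.8 to 69.9), and the Müller and RGC sums are highest in the 3 Moderate IOP libraries.

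C4b and C3 encode the proteins that C1q and its proteases act on, directly for C4 and by way of a convertase for C3. C4b is at chr17:34728381-34743897 on the minus strand, and C3 is at chr17:57203973-57228136 on the minus strand. The scaled FPKM of C4b was 0.317, 0.154 and 0 in Control and 0.115, 0.176 and 0 in Mild IOP, against 0.145, 0.569 and 0.636 in Moderate IOP. Moderate IOP replicates 2 and 3 were above every other library, and replicate 1 was not. C4b has a near-identical copy, C4a, which was at most 0.143 in any library, so the split between the pair is uncertain. The scaled FPKM of C3 was 0.36, 0.628 and 0.406 in Control and 0.337, 0.372 and 0.636 in Mild IOP, against 0.609, 0.45 and 0 in Moderate IOP, with overlap of all groups. C1q transcripts were therefore present at 19.8 to 44.3 scaled FPKM in sum while C4b and C3 stayed under 1.

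Of the 10 genes, 3 lay above all Control libraries in Moderate IOP (Lcn2, S100a6 and C1qb) and none below, where 8.3% of 16979 genes lay above and 7.89% below. Against Mild IOP, 4 lay above (Lcn2, Serpina3n, S100a6 and C1qc) and none below, beside 11.6% and 11% of all genes. In Mild IOP against Control none lay above and 1 lay below (C1qc), beside 7.01% and 7.36%. Only as a count beside the same share of all genes, by the limma call used for the lists (an FDR below 0.1 over all 13043 tested genes), none of the 10 passed in Mild IOP against Control, where 0.00767% of all genes were called higher and 0.391% lower. In Moderate IOP, 2 were higher than Control, beside 0.951% of all genes higher and 0.889% lower, and 3 were higher than Mild IOP, beside 7.03% and 3.12%. These comparisons chose the members and share libraries with each other, so nothing is read from the counts. Lcn2 also passed the filter on low values only through Moderate IOP, with means of 0.103 in Control and 0.0751 in Mild IOP. Over the 10 genes the median Log2 difference was -0.03 in Mild IOP against Control, 0.58 in Moderate IOP against Control and 0.67 in Moderate IOP against Mild IOP, where all tested genes had 0.006, 0.004 and -0.016.

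The rest of the pathway was taken from 10 lists of complement, acute-phase and reactive genes, with 188 distinct genes, of which 185 were in the files and 79 passed the filter. By limma over all 13043 tested genes with an FDR below 0.1 (Benjamini-Hochberg), no listed gene was called in Mild IOP against Control, where 0.399% of all genes were called and 10 listed genes, 5 in each direction, had an unadjusted p below 0.05. At Moderate IOP against Control 9 were higher and none lower, or 11.4% of those tested, where 1.84% of all tested genes were called in either direction and 0.951% as higher. At Moderate IOP against Mild IOP 9 were higher and 3 lower, or 15.2%, where 10.2% of all tested genes were called, 7.03% as higher and 3.12% as lower. That split of all genes, 917 higher and 407 lower, was 731 and 662 with no scaling and 709 and 690 with upper-quartile scaling, and the 124 higher and 116 lower against Control were 107 and 148 with no scaling. The lists were drawn up with earlier results of these libraries known. Leaving out 1 library gave 3 (without Control replicate 1) to 8 higher against Control, with 1 lower without Mild IOP replicate 2 and none otherwise. The number higher was 4 without Control replicate 2 or Moderate IOP replicate 1 or 2 and 6 without Control replicate 3, Mild IOP replicate 1 or Moderate IOP replicate 3. Against Mild IOP it gave 4 higher and 0 lower without Mild IOP replicate 2, and 6 higher and 2 lower without Moderate IOP replicate 2. The median Log2 difference over the tested list genes was 0.07, 0.07 and 0.13 in these 3 comparisons. Many of the remaining genes were too low to test, among them 21 of the 26 acute-phase genes in the files.

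**Figure D4:**
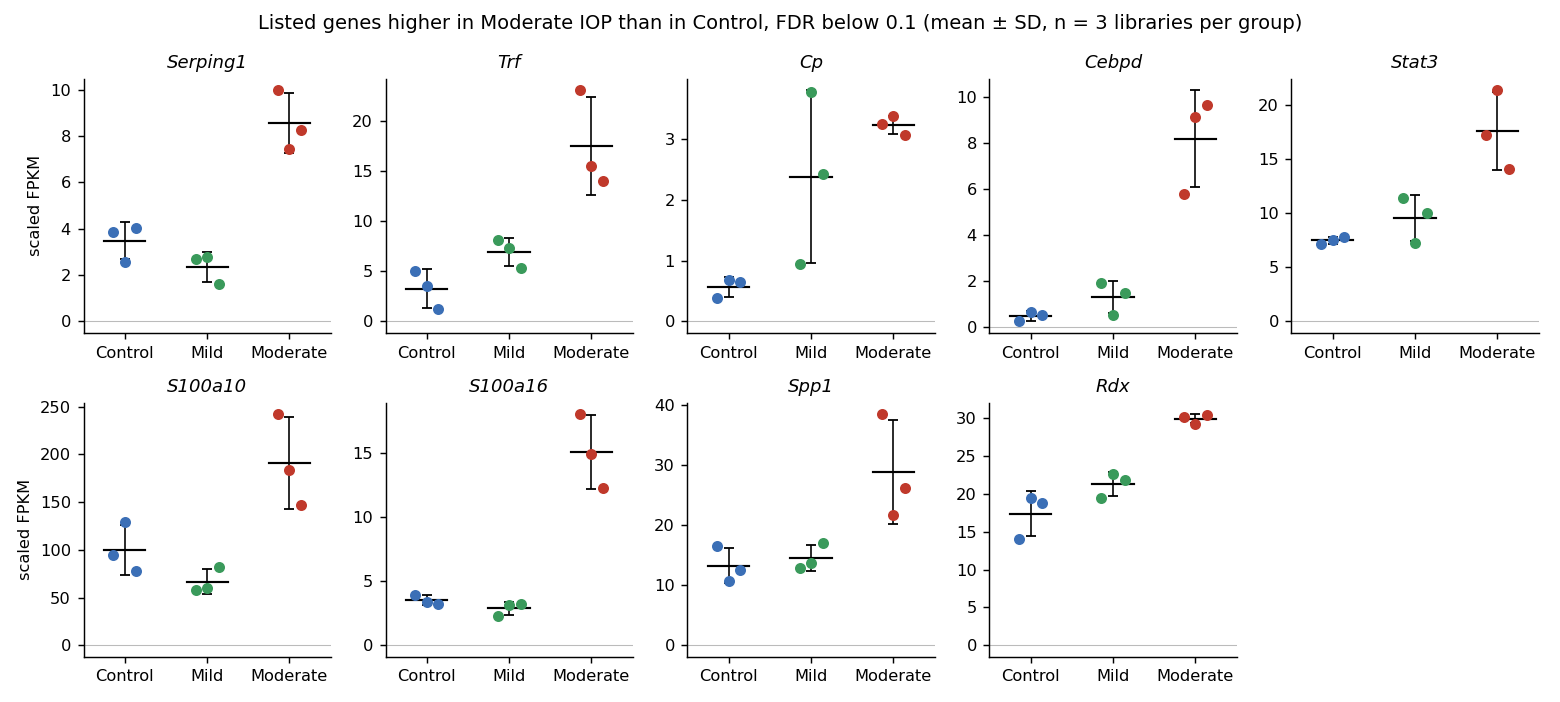
Scaled FPKM (vertical axis, linear) of the 9 listed genes called higher in Moderate IOP than in Control, in the 3 libraries of each group. Points are libraries, lines and bars are mean ± SD (n = 3); in every panel the 3 Moderate IOP libraries lie above the 3 Control libraries, and Cp overlaps between Mild IOP and Moderate IOP.

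Upstream signalling held 2 of the calls. Of 30 genes for cytokines, their receptors and NF-kB and STAT3 signalling, 18 were tested and Cebpd and Stat3 rose in Moderate IOP. Cebpd encodes C/EBP delta, a transcription factor of the acute-phase response. Its scaled FPKM was 0.251, 0.646 and 0.541 in Control and 1.91, 0.521 and 1.49 in Mild IOP, against 5.79, 9.15 and 9.65 in Moderate IOP. The Log2 fold-change was 2.62 against Control (SE 0.31; limma FDR 0.00384) and 2.02 against Mild IOP (limma FDR 0.00769). As for all listed genes, this is a difference of log2(scaled FPKM + 1), which understates changes of low genes. The ratio of the group means of Cebpd in Moderate IOP was 17.1 to Control and 6.27 to Mild IOP. Stat3, which carries the signal of IL-6 type cytokines to the nucleus, was at 7.12, 7.48 and 7.8 in Control and 11.4, 7.21 and 9.96 in Mild IOP, against 17.2, 21.3 and 14.1 in Moderate IOP. It rose by 1.11 on the Log2 scale against Control (SE 0.21; limma FDR 0.0405) and by 0.82 against Mild IOP (limma FDR 0.0468). All Moderate IOP libraries of both genes lay above all others. The call of Stat3 against Control was lost without Control replicate 1 or 2 or Moderate IOP replicate 2 (highest limma FDR 0.138), and that against Mild IOP without Mild IOP replicate 2 or Moderate IOP replicate 1 or 2 (highest limma FDR 0.188). The calls of Cebpd held in all 19 alternatives.

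Jak2, a kinase that activates STAT proteins, was lower in Moderate IOP than in Mild IOP. It was at 5.33, 4.82 and 4.99 in Control and 7.47, 9.12 and 6.7 in Mild IOP, against 4.85, 4.27 and 2.5 in Moderate IOP. The Log2 difference was -0.87 against Mild IOP (SE 0.24; limma FDR 0.0581), and neither IOP group differed from Control by the test. That call was lost without Mild IOP replicate 1 or 2 or Moderate IOP replicate 3, with a highest FDR of 0.221 over the alternatives. The related kinase Jak1 had means of 31.8, 34.3 and 34.2, and Slc22a17, a receptor for lipocalin 2, had means of 307, 283 and 238 in Control, Mild IOP and Moderate IOP, without a call. In cytokine genes looked up after the values were seen, Clcf1 was tested and not called, at 0, 2.02 and 4.58 in Control and 0.715, 3.36 and 1.58 in Mild IOP, against 0.688, 0 and 0.56 in Moderate IOP (limma FDR 0.491 against Control). Il6 was above 0 in 1 library (Mild IOP replicate 3, 0.621), Tnf in 2 (Moderate IOP replicates 2 and 3, 0.154 and 0.671) and Il1b in the same 2 (1.46 and 0.584). Socs3, a STAT3 target that damps its signal, also looked up afterwards, was at 0.661, 0.684 and 0.805 in Control and 1.34, 0.686 and 1.14 in Mild IOP, against 2.95, 6.38 and 1.39 in Moderate IOP, without a call (limma FDR 0.159 against Control).

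Most genes for acute-phase proteins other than the members were listed at 0 or were too low to test. Of 26 genes in the files 13 were listed at 0 in all 9 libraries, among them the serum amyloid genes Saa1, Saa2 and Saa3, haptoglobin (Hp) and the fibrinogen chains. Among the 5 tested, Trf and Cp were higher in Moderate IOP than in Control, and none was called lower, whereas 1 was called lower without Mild IOP replicate 2. Both are genes that the study singled out in these same libraries, so their direction here is not independent evidence. By its own test the paper lists Trf and Cp as raised at each of the IOP levels. It also reports quantitative PCR of the pair, with changes in that same direction. For a selection of its genes it describes similar PCR trends in additional animals. Those PCR values were not used here. Trf encodes transferrin, the iron carrier, and was at 5.08, 3.55 and 1.22 in Control and 8.11, 7.35 and 5.34 in Mild IOP, against 23.1, 15.5 and 14 in Moderate IOP. The Log2 fold-change there was 2.2 against Control (SE 0.35; limma FDR 0.019) and 1.21 against Mild IOP (limma FDR 0.0698). The 3 groups did not overlap, in the order Control, Mild IOP, Moderate IOP, and Mild IOP against Control was not called (Log2 fold-change 0.99; limma FDR 0.328). The call of Trf against Mild IOP was lost without any 1 of the Mild IOP libraries or without Moderate IOP replicate 1 or 2. It was also lost with a pseudocount of 0.1, with no filter on low values and without a variance trend.

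Cp encodes ceruloplasmin, the copper ferroxidase, and was at 0.38, 0.681 and 0.645 in Control and 0.94, 3.77 and 2.43 in Mild IOP, against 3.24, 3.37 and 3.07 in Moderate IOP. Against Control, Cp had a Log2 fold-change of 1.44 in Moderate IOP (SE 0.33; limma FDR 0.0744) and 1.02 in Mild IOP (limma FDR 0.272). The call was lost when any 1 of the Control or Moderate IOP libraries or Mild IOP replicate 3 was left out, with a highest FDR of 0.218 over the alternatives. Of the metallothioneins, metal-binding proteins and the most abundant genes of this list, Mt1 was at 508, 488 and 535 in Control and 399, 258 and 427 in Mild IOP, and its mean in Moderate IOP was 362 ± 38.5 (SD, n = 3). All libraries of both IOP groups lay below all Control libraries, without a call (Log2 difference of Moderate IOP -0.50; limma FDR 0.213). Mt2 had means of 26.2, 9.55 and 25.7, without a call. In the Serpina3 cluster 1 of 10 genes was tested, Serpina3g, with means of 4.08, 3.83 and 2.71 and no call. Serpina3i, too low to test, was listed at 0 in all Control libraries, at 0.033, 0 and 0.0428 in Mild IOP, and at 0.387, 2.47 and 0.402 in Moderate IOP.

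In the complement cascade beyond the members, the initiating and terminal components were low and the regulators were abundant. Of 14 classical and lectin genes in the files 2 were tested and of 10 alternative and terminal genes 2 were tested, with no call by limma in any comparison and 1 at an unadjusted p below 0.05. C2, the partner of C4 in the C3 convertase, had a mean of 0.58 scaled FPKM in Control and 1.37 in Mild IOP, against 0.335 in Moderate IOP. Every Moderate IOP library of C2 was below every Mild IOP library, without a call (Log2 difference -0.84; limma FDR 0.147). Colec11, a lectin of the lectin pathway, had means of 0.0298 and 0.309 in Control and Mild IOP, against 1.57 in Moderate IOP, where replicate 3 alone was at 4.16. Properdin (Cfp), which stabilises the alternative convertase, had means of 2.3, 1.73 and 2.01, and C8g, a chain of C8, had 1.51, 1.26 and 1.31. The lectin-pathway genes Masp1, Mbl1, Mbl2, Fcna and Colec10 were listed at 0 in all 9 libraries, as were Cfd, C6, C7, C8a and C9. Of 9 receptor genes 2 were tested, the integrin chains Itgb2 and Itgam of complement receptor 3, with means of 0.75, 0.573 and 1.25 and of 0.326, 0.506 and 1.2, and neither was called or had an unadjusted p below 0.05.

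Regulators of complement held the calls of the cascade, with 12 of 19 tested and 1 higher against Control. Serping1, the C1 inhibitor, which blocks the proteases bound to C1q, was at 3.86, 2.56 and 4.05 in Control and 2.71, 2.76 and 1.6 in Mild IOP, against 9.97, 7.46 and 8.28 in Moderate IOP. All Moderate IOP libraries lay above the other 6, with a Log2 fold-change of 1.1 against Control (SE 0.25; limma FDR 0.0736) and 1.52 against Mild IOP (limma FDR 0.009). The call against Control was lost with each Moderate IOP library left out and with Control replicate 1 or 2 or Mild IOP replicate 1 left out (highest FDR 0.207 over the alternatives), whereas the call against Mild IOP held in all 19 alternatives. Clu encodes clusterin, which inhibits the terminal complex, and was the most abundant regulator at 286, 303 and 230 in Control and 281, 246 and 255 in Mild IOP, against 363, 368 and 384 in Moderate IOP. It rose by 0.51 on the Log2 scale against Mild IOP (SE 0.12; limma FDR 0.0358), a call lost without Mild IOP replicate 2 and also without a variance trend. Against Control, Clu was not called (0.45; limma FDR 0.128). Susd4, a complement inhibitor of neurons, had means of 91.6, 80.5 and 91.3.

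The S100 family, to which S100a6 belongs, had 7 of 15 genes tested and 2 higher in Moderate IOP than in each of the other groups. S100a16 was at 3.93, 3.41 and 3.18 in Control and 2.28, 3.14 and 3.21 in Mild IOP, against 18.0, 14.9 and 12.3 in Moderate IOP, all above the others. Its Log2 fold-change was 1.82 against Control (SE 0.22; limma FDR 0.00384) and 2.04 against Mild IOP (limma FDR 0.00292), called in all 19 alternatives of each. S100a10, which pairs with annexin A2 at the membrane, was at 94.2, 129 and 77.5 in Control and 58.1, 60.1 and 81.7 in Mild IOP, against 242, 184 and 147 in Moderate IOP. It rose by 1.49 against Mild IOP on the Log2 scale (SE 0.22; limma FDR 0.00713) and by 0.92 against Control (limma FDR 0.0952), the latter lost in 12 of 19 alternatives, among them those without Control replicate 1 or 3, Mild IOP replicate 1 or 2 or Moderate IOP replicate 1 or 2. S100a1, a further calcium-binding member, had means of 54.7, 36.2 and 56.9. S100a8 and S100a9, which neutrophils carry in large amounts, were listed at 0 in all 9 libraries.

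Of 33 reactive astrocyte genes 17 were tested, and Cp, Serping1 and S100a10, each on a list above, were the 3 called higher against Control. Hspb1, a small heat shock protein, replaced Cp against Mild IOP, with 40.7, 36.0 and 27.2 in Moderate IOP against 21.7, 17.2 and 12.5 in Mild IOP (Log2 fold-change 0.99; limma FDR 0.0877). Control was at 14.3, 26 and 36.3 and overlapped both, and the call was lost in 11 of 19 alternatives, among them those without Control replicate 2, any Mild IOP library or Moderate IOP replicate 1 or 2. Gfap, the intermediate filament of astrocytes, was at 0, 0.339 and 2.06 in Control and 0, 0.635 and 0.414 in Mild IOP, against 3.13, 1.69 and 0.726 in Moderate IOP. Moderate IOP overlapped Control and lay above all Mild IOP libraries, without a call (limma FDR 0.471 and 0.223). H2-D1, a class I histocompatibility gene, had means of 141, 136 and 160.

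Partners of Timp1 and Cd44 gave 2 calls against Control among 18 of 25 genes tested. Spp1, osteopontin, a ligand of Cd44 that is also made by some RGCs, was at 16.5, 10.8 and 12.5 in Control and 12.9, 13.8 and 17.0 in Mild IOP, against 38.5, 21.8 and 26.2 in Moderate IOP. It rose by 1.05 on the Log2 scale against Control (SE 0.23; limma FDR 0.0684) and by 0.91 against Mild IOP (limma FDR 0.0439). Rdx, radixin, which ties Cd44 to actin, was at 14, 19.4 and 18.8 in Control and 19.5, 22.6 and 21.8 in Mild IOP, against 30.1, 29.3 and 30.4 in Moderate IOP, with a Log2 fold-change of 0.77 against Control (SE 0.16; limma FDR 0.0553). The call of Spp1 against Control was lost without any Control library, Mild IOP replicate 1 or Moderate IOP replicate 1 or 3 (highest limma FDR 0.191), and that against Mild IOP without Mild IOP replicate 1 or 2 or Moderate IOP replicate 1. The call of Rdx was lost without Control replicate 1 or 2 or any Moderate IOP library (highest limma FDR 0.172). The sheddase Adam17 was lower in Moderate IOP than in Mild IOP, at 0.0885, 0.218 and 0.742 against 1.81, 2.19 and 2.22 (Log2 fold-change -1.22; SE 0.28; limma FDR 0.0308), a call lost without Mild IOP replicate 2. The membrane metalloproteinase Mmp24 was lower too (Log2 fold-change -0.64; limma FDR 0.0615), a call lost without Mild IOP replicate 1 or 2 or Moderate IOP replicate 1 or 2. The most abundant of the list were Cd63, a receptor for Timp1, with means of 165, 109 and 152, and Mmp9 with 59.1, 57.0 and 47.0.

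Neutrophils also make lipocalin 2, and their markers were at or near 0. Of 9 in the files none reached the filter, 7 (S100a8, S100a9, Ngp, Camp, Mpo, Elane and Retnlg) were listed at 0 in all 9 libraries, and the summed scaled FPKM was 0.155, 1.4 and 0.084 in Control and 0.144, 0.306 and 0.111 in Mild IOP, against 0.849, 0.127 and 0.264 in Moderate IOP, from Csf3r and, in Control replicate 2 and Mild IOP replicate 2, Ltf. Astrocyte markers were likewise low outside Aldoc, which made up 99.6% of the sum. Without Aldoc the sum of the other 8 was 2.67, 2.36 and 4.98 in Control and 2.46, 3.32 and 2.89 in Mild IOP, against 7.7, 4.65 and 5.46 in Moderate IOP, and none of 4 tested was called, with 2 at an unadjusted p below 0.05 against Mild IOP and 0 against Control. S100b was among those tested, with means of 1.32, 0.724 and 2.04. Pax2, Pdgfra, Gja1 and Igf2 were under 1 FPKM throughout. The part of neutrophils and astrocytes in the values of Lcn2 and the other members was not tested.

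Müller glia span the retina and can also turn reactive. Of their 13 markers 11 were tested, and 3 were higher in Moderate IOP than in Control (Rlbp1, Apoe and Car14) and 3 higher than in Mild IOP (Glul, Apoe and Dbi). At an unadjusted p below 0.05, 7 of the 11 were higher and 0 lower in Moderate IOP against Control (median Log2 difference 0.65), and 6 were higher and 1 lower against Mild IOP (median 0.63). No share of all tested genes at that threshold stands beside these counts, so they are a description only. Their summed scaled FPKM was 802, 842 and 882 in Control and 790, 801 and 831 in Mild IOP, against 960, 1040 and 1010 in Moderate IOP, with 53.4% from Dkk3, and none was at 0 in all libraries. Without Dkk3 the sums were 328, 365 and 379 in Control and 282, 250 and 362 in Mild IOP, against 566, 616 and 562 in Moderate IOP. The members of the list did not all lie in that order. Dkk3 itself was at 474, 477 and 503 in Control and 508, 551 and 468 in Mild IOP, against 393, 424 and 451 in Moderate IOP, below all other libraries and without a call (limma FDR 0.397 and 0.17). Dbi, an acyl-CoA binding protein, was at 185, 233 and 252 in Control and 138, 125 and 198 in Mild IOP, against 334, 356 and 358 in Moderate IOP, and was called against Mild IOP. Apoe, which carries lipids, had means of 78.3, 81.2 and 127. The glutamate transporter Slc1a3 and the water channel Aqp4, looked up afterwards, had Log2 differences of 0.02 and -0.17 from Control, without a call. The count against Control was 1 without Control replicate 1 or 3 and 0 without Control replicate 2 or Moderate IOP replicate 1 or 2, and the count against Mild IOP was 5 without Mild IOP replicate 3. The part of Müller glia in the values of Lcn2, S100a6, Cebpd and the other genes was not tested.

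Of the 14 RGC markers all were tested, with 2 higher in Moderate IOP than in Control (8 higher and 0 lower at an unadjusted p below 0.05) and 9 higher than in Mild IOP. They summed to 3050, 3120 and 2980 scaled FPKM in Control and 2740, 2270 and 2800 in Mild IOP, against 4320, 4230 and 4190 in Moderate IOP, with Calb2 the most abundant at 34.1% of the sum. Sncg had means of 911, 641 and 1390, and Nefl, the light neurofilament chain, had 343, 374 and 537, both called higher in Moderate IOP against each other group (limma FDR 0.071 and 0.0115 against Control). The call of Sncg against Control was lost in 9 of 19 alternatives, among them those without any 1 of the Moderate IOP libraries (highest limma FDR 0.228). That of Nefl held in all 19. The 3 Pou4f transcription factors, which define RGCs, differed in their values. Pou4f1 was at 17.2, 17.9 and 19.2 in Control and 18.3, 12.8 and 15.7 in Mild IOP, against 34.7, 24.4 and 31.8 in Moderate IOP, and was called against Mild IOP (limma FDR 0.0174) and not against Control (Log2 difference 0.70; limma FDR 0.11). Pou4f2 was at 8.98, 10.2 and 9.4 in Control, and its Log2 difference from Control in Moderate IOP was -0.10 and that of Pou4f3 was -0.15, with no call of either in any comparison. Thy1, the antigen of the panning, was at 44.3, 54.1 and 38.9 in Control and 30.4, 29.2 and 49.7 in Mild IOP, against 69.0, 67.8 and 87.2 in Moderate IOP. Rbpms was at 84.9, 110 and 68.8 in Control and 97.7, 66.5 and 66.0 in Mild IOP, against 283, 193 and 110 in Moderate IOP. Both were called against Mild IOP (limma FDR 0.0184 and 0.0358) and not against Control (0.163 and 0.139). The means in Control were 549 for Gad1 and 438 for Pax6 on the amacrine list and 163 for Sag on the rod list, so the libraries held markers of other retinal neurons beside those of RGCs. Thy1, Rbpms and the Pou4f genes were looked up afterwards, and the part of RGC content in the differences above was not tested. The call count against Control fell to 1 without Control replicate 1 or 2, Mild IOP replicate 1, or Moderate IOP replicate 1 or 2.

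Markers of vessels and blood gave no call higher than Control. Endothelial markers summed to between 3.1 and 8.12 scaled FPKM with no call among 4 tested (1 at an unadjusted p below 0.05), 39.2% from Kdr, and Cdh5, Cldn5 and Tie1 were listed at 0 in all libraries. Esam, a junction protein, was at 1.18, 0 and 0.227 in Control and 0.321, 0.574 and 1.04 in Mild IOP, against 2.82, 0.652 and 2.34 in Moderate IOP (limma FDR 0.284 against Control). The means of Kdr were 1.76, 2.65 and 2.18 and those of Flt1, a further VEGF receptor, were 0.734, 0.59 and 1.28. Pericyte and fibroblast markers summed to 5.5, 8.55 and 4.1 in Control and 12, 18.5 and 18.9 in Mild IOP, against 8.03, 18.4 and 10.7 in Moderate IOP, 28.1% from Rgs5, with Lum at 0 and 1 of 5 tested called, lower in Moderate IOP than in Mild IOP, and none without Mild IOP replicate 1 or 2. Rgs5 was at 1.22, 2.06 and 0 in Control and 2.48, 4.64 and 7.85 in Mild IOP, against 3.51, 4.36 and 3.32 in Moderate IOP. Both IOP groups lay above all Control libraries without a call (Mild IOP, Log2 difference 1.56 and limma FDR 0.215, Moderate IOP, 1.31 and limma FDR 0.189). At an unadjusted p below 0.05 Mild IOP had 3 of the 5 tested higher than Control and Moderate IOP had 1, with 0 lower. Mgp and Igfbp5 had means of 0.497, 5.15 and 3.37 and of 1.71, 2.0 and 2.14. Red cell markers summed to 27.6, 29.0 and 37.8 in Control and 8.16, 17.7 and 24.5 in Mild IOP, against 7.06, 13 and 11.9 in Moderate IOP, mostly Hba-a1. Of 3 tested, the globin gene Hbb-bt was called lower in Moderate IOP than in Control (limma FDR 0.0548) and Mild IOP (limma FDR 0.02), the former lost without Control replicate 2 or 3 or Moderate IOP replicate 2 (highest limma FDR 0.164 over the alternatives), while Hba-a1 (means 23.7, 12.2 and 9.14) and Hbb-b1 (5.14, 2.28 and 1.27) were not called. The part of vessel and blood cells in the members' values was not tested. Of the neuron lists, amacrine markers had 2 of 10 tested lower than Control and 3 lower than Mild IOP in Moderate IOP, with sums of 1240, 1210 and 1310 in Control and 1260, 1360 and 1270 in Mild IOP, against 1000, 972 and 1030 in Moderate IOP. Of 12 rod markers, all tested, Mild IOP had 2 called lower than Control and 8 lower at an unadjusted p below 0.05, whereas Moderate IOP had 3 and 6, with 0 higher in either group. Their sums were 812, 752 and 665 in Control and 512, 424 and 524 in Mild IOP, against 498, 497 and 546 in Moderate IOP, so both IOP groups lay below all Control libraries. The rod count in Mild IOP was 0 without any 1 of the Control libraries, Mild IOP replicate 1 or 2 or Moderate IOP replicate 2 and 1 without Mild IOP replicate 3 or Moderate IOP replicate 1, and that in Moderate IOP was 0 without Control replicate 1 or 2 and 1 without Moderate IOP replicate 2. The amacrine count against Control was 1 without any 1 of the Control libraries, Mild IOP replicate 1 or Moderate IOP replicate 1 or 2. Slc6a9, a glycine transporter on the amacrine list, had means of 110, 146 and 39.3, and the rod genes Gnat1 and Pde6g had 147, 105 and 98.7 and 110, 69.1 and 81.3.

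The genes whose level followed the members most closely were found by Pearson's r over the 9 libraries on log2(scaled FPKM + 1), among 10500 genes, as a description that the contrast of the 3 groups shapes. For Lcn2 these were Irf9 (r = 0.978), a subunit of the interferon-activated factor ISGF3, then Ywhah (0.953), Hist1h1e (0.948), Ctxn1 (0.941) and Hpcal1 (0.936). Irf9 had means of 4.19, 3.25 and 15.2 scaled FPKM in Control, Mild IOP and Moderate IOP, and the linker histone gene Hist1h1e had 16.8, 16.3 and 67.1. For the sum of the C1q chains they were Prdx1 (0.983), a peroxide-reducing enzyme, Uqcrfs1 (0.974), Lcmt1 (0.97), Ccl27b (0.965) and Mrps25 (0.958). Prdx1 had means of 153, 135 and 210. For the mean z-score of the 10 genes they were Ywhah (0.98), Rab11b (0.967), Raly (0.967), Cartpt (0.967) and Hist1h1e (0.962), and the neuropeptide gene Cartpt had means of 408, 310 and 885. The 5 genes most like the C1q sum shared none with the 5 most like Lcn2.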

How the data were processed

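RGC RNA from the 3 pools was made into 9 libraries (SMART-seq v4, oligo-dT priming, Nextera XT, no strand). The submitters' processing notes name Trimmomatic, TopHat2, Cufflinks and Cuffdiff and the build mm10, whereas the methods name bowtie2 as aligner. The deposited values are FPKM per locus with a confidence interval, made by the authors with Cufflinks for each library. Loci that share a symbol were added up, 2 symbols with a failed estimate were left out, and median-of-ratios factors (0.983 to 1.058) set the scale of each library. No read totals accompany the FPKM, so fragments were derived as (2 × FPKM / (upper bound − FPKM)) squared. Depth came from genes with transcripts of at least 2000 bases in GENCODE M21. In Mild IOP replicate 2 a single locus, Mir1249, took 20.52% of the FPKM, and in Moderate IOP replicate 3 Mir8104 took 9.14%.

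Tests used limma 3.58.1 in R 4.3.3 on log2(scaled FPKM + 1), with genes of mean scaled FPKM of at least 0.5 (13043), 1 mean per group over all 9 libraries, a variance trend and Benjamini-Hochberg adjustment, and an FDR below 0.1 as the call. Counts at an unadjusted p below 0.05 are given for the lists without the share of all tested genes at that threshold, as a description only. Ratios of fragments carry exact 95% intervals. In simulated data for Moderate IOP against Control with 13043 genes, 52 of 100 changes of 1 and 86 of 100 changes of 2 on the log2 scale were recovered, with 6 false calls. The 10 members and all lists were chosen with earlier results of these data known. Named were all members, the 2 most abundant and up to 4 called genes of each list, the 3 most abundant markers of each cell type and the 5 genes most like each profile, with others looked up afterwards or named as defining or called markers. A single gene that this rule selects is not reported here. Alternatives were another scaling, pseudocount, filter or variance, a replicate block, failed estimates kept, and each library left out. Cuffdiff tests and reads were not used here. Tables and figures were made with Python 3.11.15, pandas 2.3.3 and matplotlib 3.10.9.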

Additional observations from a re-analysis of the deposited data

How the results depend on the processing

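No called value changed its direction under any alternative run, whereas the median of the 10 genes in Mild IOP against Control, which carries no call, lay on either side of 0. The number of genes called in Mild IOP against Control was 52, and it was 28 with upper-quartile scaling, 24 with no filter, 15 without a variance trend, 11 with the variance of the compared groups and 25 with the replicate block, and ranged from 15 to 175 with 1 library left out, the highest without Mild IOP replicate 3. In Moderate IOP against Control 240 calls became 144 without a variance trend, 134 with the variance of the compared groups, 135 with the replicate block, and 61 (without Control replicate 1) to 286 with 1 library left out. Scaling moved the split of calls, from 124 higher and 116 lower to 107 and 148 with no scaling against Control, and from 917 and 407 to 731 and 662 with no scaling and 709 and 690 with upper-quartile scaling against Mild IOP. In Moderate IOP against Mild IOP 1324 became 839 without a variance trend and 518 (without Mild IOP replicate 2) to 1398 with 1 library left out. The median Log2 difference of the 10 genes was 1.02 with a pseudocount of 0.1 in Moderate IOP against Control (0.34 to 0.66 with 1 library left out), 1.25 in Moderate IOP against Mild IOP (0.58 to 0.78) and -0.11 in Mild IOP against Control (-0.07 to 0.02), against -0.03 in the report. A filter at a mean of 2 left 6 of the 10 genes, Lcn2, S100a6 and Serpina3n only through Moderate IOP, and the medians of those 6 were 0.88, 1.32 and -0.18, which are no values of all 10.

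Libraries with the same number did not deviate together (r of -0.005 to 0.044 for the 9 pairs, -0.051 to 0.042 for pairs with different numbers), so the samples share only a number. The replicate block also ended, among the named genes, the calls of Serping1, Cp, S100a10, Apoe, Hbb-bt and Sncg in Moderate IOP against Control, of Hspb1 in Moderate IOP against Mild IOP and of Sag in Mild IOP against Control. Other settings ended further calls of Moderate IOP. Calls lost without a variance trend included S100a10, Spp1, Rdx, Apoe and Sncg against Control, and Clu, Trf and Hspb1 against Mild IOP. With no filter they included Serping1, Cp, S100a10, Spp1 and Sncg against Control, and Trf and Hspb1 against Mild IOP. The variance of the compared groups ended those of Serping1, S100a10, Spp1, Rdx and Hbb-bt against Control and of Jak2 against Mild IOP. Depth limits Cd44 and Timp1 in every group and Lcn2 and S100a6 in Control, where values rest on a few fragments or none. It also limits Lcn2 in Mild IOP, with 1 fragment in all, and S100a6 in Mild IOP replicate 3, where it is listed at 0. C4b and C3 were low too, on more fragments. In Control, Mild IOP and Moderate IOP, C4b rested on 21, 10.4 and 53 and C3 on 56, 45.9 and 37.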
